A study of Mus musculus with 4 samples.

Results

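The genes described are 6 chemokine genes of the mouse mammary carcinoma line 4T1, 5 of the CC class (Ccl2, Ccl5, Ccl7, Ccl9 and Ccl20) and the single CX3C gene, Cx3cl1. They were taken by gene symbol from the 24411 genes listed for each library, and all 6 symbols were found. Messenger RNA was profiled in 4 libraries of cultured 4T1 cells, 2 labelled control and 2 labelled CD95ko. CD95, encoded by Fas, is the death receptor for Fas ligand. The knockout cells carry a stable lentiviral Cas9 with blasticidin resistance and received a pair of guide RNAs meant to delete exon 9 of the gene, per the labels' protocols. Each knockout library comes from 1 expanded single-cell clone. The protocols name a control culture and the Cas9-expressing line as the other RNA sources, and the titles do not say which of them is control 1 and which control 2. Each library is a different line or clone, so the p-values below rest on the gaps between lines or clones within each group. They do not measure the spread between repeat cultures of one. Single-cell cloning is stated here for the knockout libraries only, so its effects and those of the knockout cannot be told apart.

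Chemokines are small secreted proteins that bind G protein-coupled receptors on leukocytes and guide their migration. CC chemokines have adjacent cysteines near the amino terminus, whereas CX3CL1 (fractalkine) is made as a membrane-anchored protein with a chemokine domain on a mucin-like stalk and can be cut loose by the metalloproteases ADAM10 and ADAM17. In tumours, CCL2 and CCL7 attract monocytes through CCR2, CCL5 attracts T cells and myeloid cells through several receptors, CCL9 acts through CCR1, CCL20 attracts CCR6-bearing lymphocytes and dendritic cells, and CX3CL1 acts on cells with CX3CR1, among them monocytes and natural killer cells. Transcription of several of these genes is driven by NF-κB, which signals downstream of TNF receptors, interleukin 1 receptors and Toll-like receptors.

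The genes lie at 4 places in the genome (GRCm38, GENCODE M21). Ccl2 (chr11:82035571-82037453) and Ccl7 (chr11:82045712-82047525) are neighbours on the forward strand of chromosome 11. Ccl5 (chr11:83525778-83530518) and Ccl9 (chr11:83572919-83578636) are close to each other on the reverse strand of the same chromosome. Ccl20 is at chr1:83116766-83119167 and Cx3cl1 at chr8:94772009-94782427, both on the forward strand. RefSeq promoter windows (GRCm38.p6) were matched for 3 of the 6 genes, Ccl9, Ccl20 and Cx3cl1, and the 250 bases before the annotated start were searched on both strands for the κB consensus bound by NF-κB, for TGANTCA, the core bound by AP-1, and for TATAAA. The windows of Ccl20 and Ccl9 are shown because both hold a κB match, while Ccl20 was measured in every library and Ccl9 was listed at 0 in each. Capitals mark the κB match and, in Ccl9, also the TGANTCA and TATAAA matches, of which a pair on opposite strands overlap. The Ccl20 window is chr1:83116516-83116765 on the forward strand, and the Ccl9 window is chr11:83578637-83578886, read on the reverse strand, both 5′ to 3′.
Ccl20: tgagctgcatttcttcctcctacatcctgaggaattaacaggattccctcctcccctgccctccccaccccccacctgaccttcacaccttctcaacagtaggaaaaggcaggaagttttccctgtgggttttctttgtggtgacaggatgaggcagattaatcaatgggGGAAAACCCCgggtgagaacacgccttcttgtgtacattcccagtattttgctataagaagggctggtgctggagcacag
Ccl9: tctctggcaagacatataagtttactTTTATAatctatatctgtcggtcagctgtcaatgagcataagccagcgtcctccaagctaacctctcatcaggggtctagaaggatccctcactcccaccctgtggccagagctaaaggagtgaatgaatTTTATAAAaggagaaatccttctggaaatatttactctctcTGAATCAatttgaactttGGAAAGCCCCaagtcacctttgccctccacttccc

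In the Ccl20 window the κB match ran from 80 to 71 bases before the start. In the Ccl9 window it ran from 35 to 26 bases before the start, with a TGANTCA match from 53 to 47. The Cx3cl1 window held a TATAAA match from 6 to 1 bases before the RefSeq start and neither of the other motifs, and 171 of its 250 bases lie inside the gene as GENCODE draws it. A κB match was present in 7.01% and a TGANTCA match in 6.87% of the 27025 RefSeq promoter windows of the same length, and TATAAA in 13.0%. These matches describe letters in a window and were not measured as binding sites.

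The deposited unit was TPM, a transcript abundance scaled for transcript length and library size, so levels of different genes can be set side by side. TPM carries no read number and sequencing depth is unknown from it. Genes above 0 numbered 11193 to 12010 per library. Fas, the targeted gene, was 49.4 TPM in control 1, 39.2 TPM in control 2, 15.8 TPM in the library labelled CD95ko 1 and 49.5 TPM in the library labelled CD95ko 2. Its level was thus not below the controls in the library labelled CD95ko 2. A gene-level value cannot show whether exon 9 is missing, so directions below follow the labels. Differences in log2(TPM + 1) between the controls had an SD of 0.662 over the tested genes, and those between the libraries labelled CD95ko one of 1.04.

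Transcripts of 4 of the 6 chemokines were detected. Ccl7 and Ccl9 were listed at 0 in all 4 libraries, as were 46.9% of all listed genes. Ccl2, Ccl5 and Ccl20 were lower in both libraries labelled CD95ko than in both controls, and Cx3cl1 was higher in both. The differences of Ccl2 and Cx3cl1 exceeded 2-fold in all 4 pairs of a knockout with a control library on the log2(TPM + 1) scale, whereas those of Ccl5 and Ccl20 did not. In the test across all genes, none of the 4 passed an adjusted p-value of 0.05. In bulk RNA, fewer cells that express a gene and less RNA per cell cannot be told apart.

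**Figure D1:**
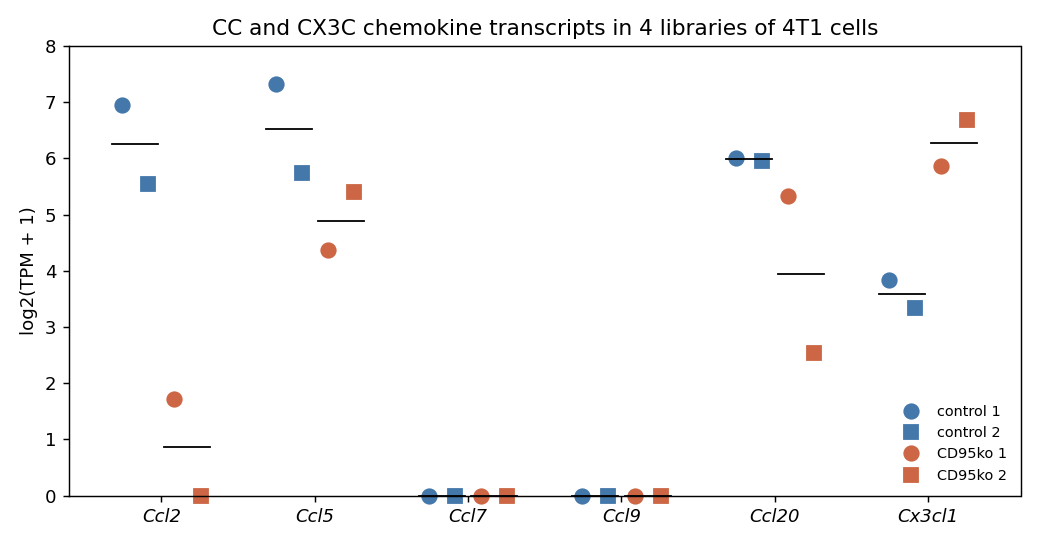
Level of each chemokine as log2(TPM + 1) on the vertical axis, with 1 point per library and a bar at each group mean. Controls are blue and CD95ko libraries orange, with a circle for library 1 and a square for library 2 of each group. Ccl2, Ccl5 and Ccl20 are lower in both CD95ko libraries than in both controls, Cx3cl1 is higher in both, and Ccl7 and Ccl9 sit at 0 throughout.

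Ccl2, a monocyte attractant, was 123 TPM in control 1, 45.6 TPM in control 2, 2.29 TPM in the library labelled CD95ko 1 and listed at 0 in the library labelled CD95ko 2. Both controls were high, both knockout libraries were low, and the groups did not overlap. In control 1 Ccl2 was more abundant than 88.7% of the genes above 0 and in control 2 than 75.1%, against 11.2% in the library labelled CD95ko 1. The mean was 84.4 ± 54.8 TPM in the controls (SD, n = 2) and 1.15 ± 1.62 TPM in the libraries labelled CD95ko (SD, n = 2). The log2 fold change on the log2(TPM + 1) scale was -5.39 ± 0.72 SE, with a 95% interval from -7.03 to -3.75 and a limma adjusted p of 0.0594. It was the lowest fold change of the 11167 genes tested, was the fourth lowest with a pseudocount of 0.1, and ranked between 1 and 9 from the bottom with 1 library left out. Over the settings with all 4 libraries the limma adjusted p of Ccl2 ranged from 0.0258 with robust variance estimation to 0.213 with a pseudocount of 0.1. The controls themselves were 2.70-fold apart in TPM without scaling between libraries.

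Ccl7 encodes another CCR2 ligand and starts 10141 bases downstream of the start of Ccl2. It was listed at 0 in every library, including control 1, in which Ccl2 was highest. None of the 777 stretches of 25 bases in the Ccl7 transcript occurs in a transcript of another gene in GENCODE M21 on either strand. Without read numbers, no upper limit can be set on its level.

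Ccl5, an attractant of T cells and myeloid cells and a gene that interferon and NF-κB signalling both raise, was 158 TPM in control 1 and 52.4 TPM in control 2. It was 19.8 TPM in the library labelled CD95ko 1 and 41.3 TPM in the library labelled CD95ko 2. Control 1 stood apart from the other 3 libraries, and control 2 was nearest to the library labelled CD95ko 2. The means were 105.3 ± 74.8 TPM in the controls versus 30.5 ± 15.2 TPM in the libraries labelled CD95ko (SD, n = 2 in each). The log2 fold change was -1.64 ± 0.57 SE, with a 95% interval from -2.92 to -0.35 and a limma adjusted p of 0.239. The controls were 3.02-fold apart, a log2 difference of -1.58 for control 2 minus control 1. The 4 knockout-control differences ran from -2.94 to -0.34 on the same scale. Without scaling between libraries, the control gap was wider than 2 of them. Size factors for median-ratio scaling were 1.09 in control 1 and 0.831 in control 2, so that scaling narrows this gap. Without control 1 the log2 fold change was -0.85 (limma adjusted p = 0.645), and without control 2 it was -2.43.

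Ccl9, a CCR1 ligand encoded beside Ccl5, was listed at 0 in all 4 libraries. Of the 25-base stretches of its transcripts, 5.89% also occur in other genes' transcripts.

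Ccl20, the CCR6 ligand, was 63.0 TPM in control 1, 61.3 TPM in control 2, 39.3 TPM in the library labelled CD95ko 1 and 4.83 TPM in the library labelled CD95ko 2. The controls were nearly equal, whereas the libraries labelled CD95ko were 8.14-fold apart. Relative to the control mean of 62.1 ± 1.15 TPM (SD, n = 2), the library labelled CD95ko 1 was at 63.3% and the library labelled CD95ko 2 at 7.77%. The log2 fold change was -2.04 ± 0.77 SE, with a 95% interval from -3.79 to -0.30 and a limma adjusted p of 0.272. It rested largely on the library labelled CD95ko 2: it was -0.65 without that library and -3.44 without the library labelled CD95ko 1.

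Cx3cl1, which encodes the membrane-anchored fractalkine, differed in the opposite direction. It was 13.3 TPM in control 1, 9.17 TPM in control 2, 57.3 TPM in the library labelled CD95ko 1 and 102 TPM in the library labelled CD95ko 2. Both knockout libraries were above both controls without overlap. The lines or clones of each group were under 2-fold apart, at 1.45-fold for the controls and 1.78-fold for the libraries labelled CD95ko. The means were 11.2 ± 2.92 TPM and 79.6 ± 31.6 TPM (SD, n = 2 in each). The libraries labelled CD95ko reached 510.1% and 907.5% of the control mean. The log2 fold change was 2.68 ± 0.45 SE, with a 95% interval from 1.66 to 3.71 and a limma adjusted p of 0.0676. It ranked 64 from the top among the 11167 tested genes, 226 with a pseudocount of 0.1, and between 81 and 120 with 1 library left out. Over the settings with all 4 libraries the limma adjusted p of Cx3cl1 ranged from 0.0327 with robust variance estimation to 0.178 without a variance trend.

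**Figure D2:**
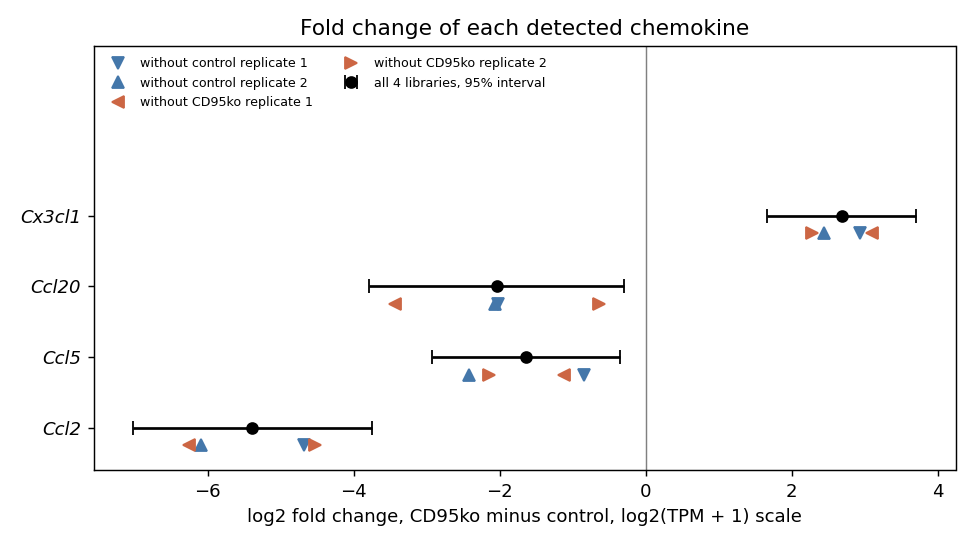
Log2 fold change (CD95ko minus control, horizontal axis, log2(TPM + 1) scale) of the 4 detected chemokines, with black points and 95% intervals for all 4 libraries and triangles for the values with 1 library left out (blue, a control; orange, a CD95ko library). All values keep their side of 0, as the triangles must when the groups do not overlap. The triangles of Ccl20 spread from -3.44 to -0.65 with the knockout library left out.

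Of the 6 chemokines, 4 passed the filter on low values (at least 1 TPM in at least 2 libraries). None of them passed the adjusted threshold in limma, which 0.0537% of the 11167 tested genes did. All 4 had an unadjusted limma p under 0.05, 3 of them lower in the libraries labelled CD95ko, where 5.68% of tested genes were called lower, and 1 higher, where 9.25% were called higher. Ccl20 lost this call without a variance trend (limma unadjusted p = 0.0585) and with robust variance estimation (0.0771). The unadjusted p-values in the reported fit were 4.21e-05 for Ccl2, 0.00023 for Cx3cl1, 0.0182 for Ccl5 and 0.0267 for Ccl20. Groups did not overlap for any of the 4, against a background of 18.3% of genes lower and 29.2% higher without overlap. Over 2-fold differences in all 4 pairs, shown by Ccl2 downward and Cx3cl1 upward, were present in 1.96% and 3.53% of tested genes. The genes were chosen with results of these data known, and these counts describe them only. Permuting 2 against 2 libraries exactly allows no two-sided p below 0.333 for any one gene.

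The tested genes had a median log2 fold change of 0.129, which was 0.00204 under quantile normalization and -0.0184 under median-ratio scaling. Relative to that median, the fold changes were -5.52 for Ccl2, -1.77 for Ccl5, -2.17 for Ccl20 and 2.55 for Cx3cl1. All 4 kept their direction under both scalings. The share of higher genes among those with an unadjusted p under 0.05 was 62.0%, and it was 51.9% under quantile normalization and 48.4% under median-ratio scaling.

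**Figure D3:**
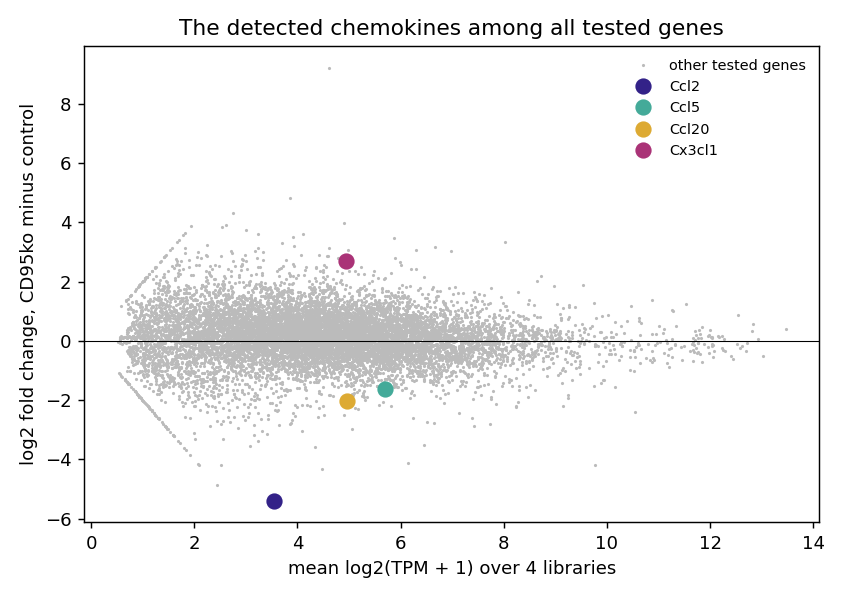
Mean level over the 4 libraries (horizontal axis, log2(TPM + 1)) against log2 fold change (vertical axis, CD95ko minus control) for the 11167 tested genes, with the 4 detected chemokines in colour. Ccl2 lies below every other gene at -5.39, Ccl20 is at -2.04, Ccl5 at -1.64 and Cx3cl1 at 2.68, where other genes lie further from 0 on both sides.

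The order of the 4 transcripts differed between the libraries. In control 1 it was Ccl5, Ccl2, Ccl20 and Cx3cl1 from high to low. In control 2 it was Ccl20, Ccl5, Ccl2 and Cx3cl1, with the first 3 between 45.6 and 61.3 TPM. In both libraries labelled CD95ko Cx3cl1 came first and Ccl2 last. Ccl20 was above Ccl5 in the library labelled CD95ko 1 and below it in the library labelled CD95ko 2. The summed level of the 6 genes was 357.5 TPM in control 1, 168.5 TPM in control 2, 118.7 TPM in the library labelled CD95ko 1 and 148.1 TPM in the library labelled CD95ko 2. The sum in control 2 was thus nearer to the libraries labelled CD95ko than to control 1. Cx3cl1 made up 3.72% and 5.44% of that sum in the controls, against 48.3% and 68.9% in the libraries labelled CD95ko. Ccl2 made up 34.4% and 27.1% in the controls against 1.93% and 0% in the libraries labelled CD95ko.

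**Figure D4:**
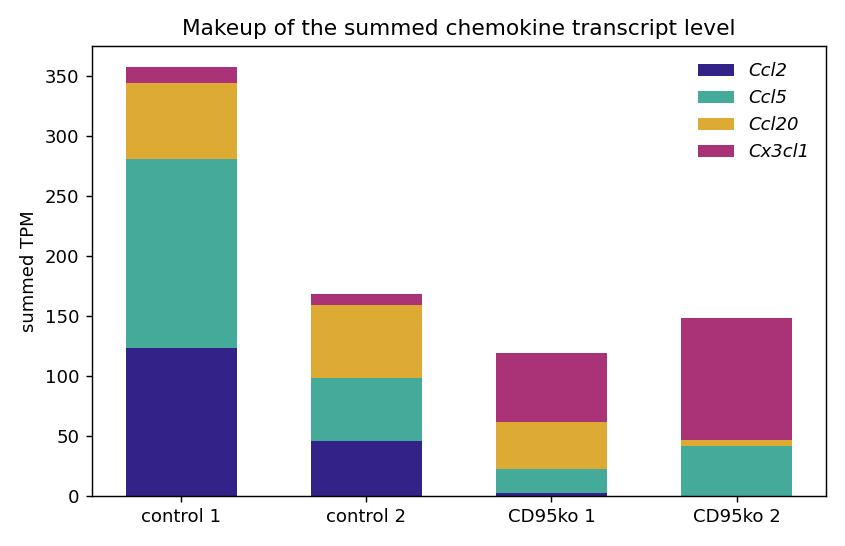
Summed TPM (vertical axis) of Ccl2, Ccl5, Ccl20 and Cx3cl1 in each library, stacked by gene; Ccl7 and Ccl9 are at 0. Cx3cl1 is the smallest piece in both controls and the largest piece in both CD95ko libraries, at 48.3% and 68.9% of the sum.

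Most other ligands of these classes were listed at 0. Of the 26 CC, XC and CX3C ligand genes listed, 19 were at 0 in all 4 libraries, including Ccl3, Ccl8, Ccl11, Ccl12, Ccl17, Ccl22 and Ccl28. Outside the 6 genes, only Ccl4, Ccl6 and Ccl25 were above 0 anywhere. Ccl25, which attracts CCR9-bearing lymphocytes, was 4.88 TPM in control 1, 5.49 TPM in control 2, 3.27 TPM in the library labelled CD95ko 1 and listed at 0 in the library labelled CD95ko 2 (log2 fold change -1.58 ± 0.79 SE, limma adjusted p = 0.387). Ccl4 was 2.23 TPM in control 1 alone, and Ccl6 was 1.17 TPM in the library labelled CD95ko 1 alone.

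The genes next to the detected chemokines were examined within 250 kb of each start. Around Ccl2, all 6 other listed genes were at 0 in all 4 libraries, among them Ccl7, Ccl11, Ccl12 and Ccl8. Around Ccl5, 11 of 20 listed genes were at 0 throughout and 5 were tested, with a median log2 fold change of 0.108. The only one of the 5 with an unadjusted limma p under 0.05 was 1700020L24Rik, at 11.7 and 3.19 TPM in the controls and listed at 0 in both libraries labelled CD95ko. It passed the filter through the controls alone, so it had to differ between the groups. Around Ccl20, both other listed genes were at 0. Around Cx3cl1, its chemokine neighbours Ccl22 and Ccl17 were at 0 on either side, and 11 of 15 listed genes were tested, with a median log2 fold change of 0.485. Of these 11, 3 had an unadjusted limma p under 0.05 and a higher level, and 1 a lower level, against 9.25% and 5.68% of all tested genes, while none passed the adjusted threshold. The higher ones included Adgrg3, an adhesion G protein-coupled receptor gene that starts 245683 bases from Cx3cl1 and was 5.96 and 9.81 TPM in the controls versus 28.3 and 81.1 TPM in the libraries labelled CD95ko (log2 fold change 2.50 ± 0.58 SE, limma adjusted p = 0.141). The related receptor gene Adgrg1 was 4.61 and 0.73 TPM in the controls versus 18.3 and 16.4 TPM in the libraries labelled CD95ko (log2 fold change 2.56 ± 0.67 SE, limma adjusted p = 0.161). The remaining pair was Rspry1, higher at a log2 fold change of 1.29, and Polr2c, a subunit of RNA polymerase II, lower at -0.73.

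Receptors for these ligands were mostly listed at 0. Of 17 chemokine receptor genes on the list, which includes atypical receptors, 13 were at 0 in all 4 libraries, including Ccr2 for CCL2, Ccr1 for CCL9, and Ccr6 for CCL20. Cx3cr1, the CX3CL1 receptor, was 0.63 and 0.35 TPM in the controls versus 3.76 and 0.87 TPM in the libraries labelled CD95ko, and it did not pass the filter. Ccr10 reached 2.0 TPM in the library labelled CD95ko 2 and 0.79 TPM in control 2. Ccrl2, an atypical receptor, was 2.11 TPM in control 1 and 0.93 TPM in the library labelled CD95ko 1. Ackr3, an atypical receptor known for taking up CXCL12, was the only listed gene that passed the filter, at 36.8 and 54.9 TPM in the controls versus 17.8 and 31.7 TPM in the libraries labelled CD95ko (log2 fold change -0.89 ± 0.45 SE, limma adjusted p = 0.386).

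Genes that process these chemokines were measured beside Cx3cl1. Of 8 genes on the list, 5 were tested, none passed the adjusted threshold and their median log2 fold change was 0.835, against 0.129 for all tested genes. Adam10, the constitutive sheddase of CX3CL1, was 29.0 and 18.3 TPM in the controls versus 41.7 and 42.5 TPM in the libraries labelled CD95ko (log2 fold change 0.84 ± 0.41 SE, limma adjusted p = 0.379). Adam17, the inducible sheddase, was 28.8 and 22.6 TPM in the controls versus 40.6 and 26.3 TPM in the libraries labelled CD95ko, and its groups overlapped. The membrane metalloprotease gene Mmp14 was 130.1 and 53.0 TPM in the controls versus 193.7 and 344.6 TPM in the libraries labelled CD95ko (log2 fold change 1.62 ± 0.47 SE, limma adjusted p = 0.185). It was the only gene of this list with an unadjusted limma p under 0.05, against 9.25% of all tested genes called higher. Dpp4, the peptidase that trims CCL5, and Mmp2 were listed at 0 throughout.

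NF-κB genes were examined beside the detected chemokines. Of these, Ccl2, Ccl5 and Ccl20 were lower in the libraries labelled CD95ko, whereas Cx3cl1 was higher (log2 fold change 2.68). All 13 subunits and regulators on the list were tested, and 6 had an unadjusted limma p under 0.05, all lower in the libraries labelled CD95ko, where 5.68% of tested genes were called lower. The median log2 fold change of the list was -1.17, with 10 genes below 0 and 3 above. None passed the adjusted threshold. Relb, a subunit of the alternative pathway, was 121.7 and 117.6 TPM in the controls versus 29.5 and 21.6 TPM in the libraries labelled CD95ko (log2 fold change -2.20 ± 0.36 SE, limma adjusted p = 0.0676). With robust variance estimation 1 gene of the list passed the adjusted threshold. Birc3, an NF-κB target that encodes a ubiquitin ligase of TNF receptor complexes, was 24.8 and 27.2 TPM in the controls versus 2.26 and 4.73 TPM in the libraries labelled CD95ko (log2 fold change -2.64 ± 0.54 SE, limma adjusted p = 0.114). The others were Rela (log2 fold change -1.17), which encodes the p65 subunit, Nfkb2 (-1.23), which encodes the p100 precursor, and the inhibitor genes Nfkbia (-1.52) and Nfkbib (-1.56). Nfkb1 had a log2 fold change of -0.21 and Tnfaip3, which encodes the feedback inhibitor A20, one of -0.13. The part of these genes in the levels of the chemokines was not tested.

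**Figure D5:**
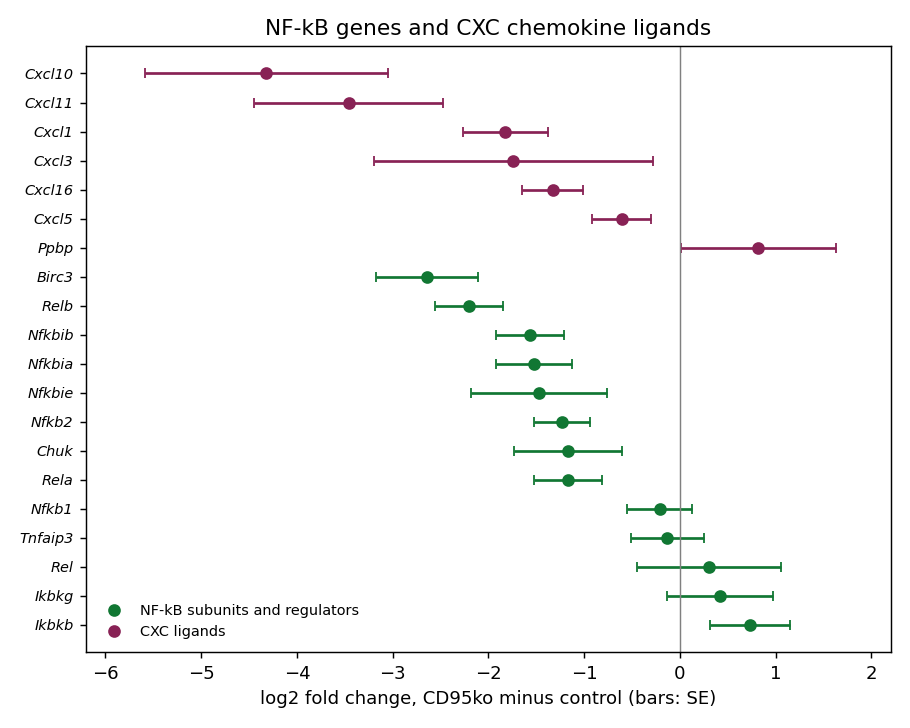
Log2 fold change (CD95ko minus control, horizontal axis; bars show the SE) of the tested NF-κB subunits and regulators (green) and CXC chemokine ligands (purple). In the plot 10 of 13 NF-κB genes and 6 of 7 CXC ligands lie below 0. Among the latter, Cxcl11 passed the filter through the controls alone, so it had to lie below 0.

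The CXC ligands gave a point of comparison. Of 15 listed, 5 were at 0 in all 4 libraries and 7 were tested, with a median log2 fold change of -1.74. None passed the adjusted threshold, and 4 had an unadjusted limma p under 0.05, all lower in the libraries labelled CD95ko, against 5.68% of all tested genes (3 with robust variance estimation). Cxcl1, Cxcl5 and Cxcl16 were more abundant than any CC ligand in every library. Cxcl5, a neutrophil attractant, was 580.7 and 893.6 TPM in the controls versus 495.6 and 449.1 TPM in the libraries labelled CD95ko (log2 fold change -0.61 ± 0.31 SE, limma adjusted p = 0.39). Cxcl1 was 730.1 and 1767 TPM and Cxcl16 387.2 and 518.4 TPM in the controls. Cxcl1, another neutrophil attractant, was 420.0 and 244.1 TPM in the libraries labelled CD95ko (log2 fold change -1.82 ± 0.44 SE, limma adjusted p = 0.147). Cxcl16, which like Cx3cl1 encodes a membrane-anchored chemokine, was 211.6 and 149.1 TPM there (log2 fold change -1.33 ± 0.32 SE, limma adjusted p = 0.147), opposite in direction to Cx3cl1. Cxcl10, an interferon-induced gene like Ccl5, was 192.7 TPM in control 1, 49.9 TPM in control 2, 23.8 TPM in the library labelled CD95ko 1 and listed at 0 in the library labelled CD95ko 2. As with Ccl5, control 1 was the highest library. Cxcl11, counted among the 4 with an unadjusted limma p under 0.05, was 32.5 and 2.61 TPM in the controls. It was listed at 0 in both libraries labelled CD95ko and passed the filter through the controls alone, so it had to differ between the groups. Cxcl3 was 51.1 TPM in control 1, 1.44 TPM in control 2, 10.4 TPM in the library labelled CD95ko 1 and listed at 0 in the library labelled CD95ko 2, with overlapping groups. Ppbp was at most 3.38 TPM, Cxcl2 was 7.31 TPM in control 1 alone and Pf4 was 2.85 TPM in control 2 alone.

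Markers were used to check the identity of the cells. The epithelial markers Epcam, Krt8, Krt18 and Cdh1 were above 0 in every library, with a summed level of 2581 and 2643 TPM in the controls versus 4196 and 7701 TPM in the libraries labelled CD95ko. All 4 were higher in both libraries labelled CD95ko than in both controls, as were 29.2% of all tested genes. Of the 4, 3 had an unadjusted limma p under 0.05, against 9.25% of tested genes called higher, and the part of this shift in the chemokine levels was not tested. Of 7 leukocyte markers in the files, 5 were at 0 in all 4 libraries, among them Ptprc, Itgam and Adgre1. The other 2 were Cd68, at 17.8 to 146.3 TPM with overlapping groups, and Csf1r. Csf1r was 1.22 and 0 TPM in the controls versus 22.2 and 5.07 TPM in the libraries labelled CD95ko (log2 fold change 2.99 ± 0.80 SE, limma adjusted p = 0.164). Of these 2, only Csf1r had an unadjusted limma p under 0.05, against 9.25% of tested genes called higher. The leukocyte markers summed to 45.8 and 42.0 TPM in the controls versus to 40.0 and 151.3 TPM in the libraries labelled CD95ko. All 4 endothelial markers were at 0, and the 6 fibroblast markers summed to at most 4.52 TPM.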

How the data were processed

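Messenger RNA was sequenced in 4 libraries of 4T1 cells, grouped by their titles. Oligo(dT)-selected RNA was fragmented, tailed, reverse transcribed by a SMART-seq2-derived chemistry and amplified by PCR, per the labels' protocols, which mention no molecular identifiers. The deposited TPM tables give 1 value per gene symbol and library, per the file headers. STAR 2.6.0, RSEM 1.3.0 and the build mm10 are named in the submitters' processing notes. The annotation is not given in the sources used here. Depth is unknown from TPM, so no count test was made.

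Genes with at least 1 TPM in at least 2 libraries (11167) were compared on log2(TPM + 1) with limma 3.58.1 in R 4.3.3 (two-sided; trended eBayes; Benjamini-Hochberg over all tested genes; threshold 0.05). The procedure was tested on simulated data with normal noise at the fitted spread. Such data meet the assumptions of limma, so the simulation does not show how the test behaves with lines and clones as replicates. Fold changes on this scale understate those of weakly expressed genes. The members and the gene lists were chosen with earlier results of these data known, and lists are described by counts and medians without a test. Named were the 6 members, list genes with an unadjusted p under 0.05, ligands and receptors reaching 1 TPM in any library, and the 3 tested genes nearest to each member. Other genes named were chosen after their values were seen. Alternatives were a pseudocount of 0.1, no filter (genes at 0 in all 4 libraries left out), eBayes without trend, robust eBayes, quantile normalization, median-ratio scaling, the replicate number as a block, and leaving out each library.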

Additional observations from a re-analysis of the deposited data

How the results depend on the processing

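All 4 fold changes kept their direction under each of the 11 alternatives, but only quantile normalization and median-ratio scaling could have reversed it. No filter, the eBayes variants and the replicate block leave the fold change itself unchanged. Because the groups do not overlap, neither the smaller pseudocount nor leaving out 1 library can change its sign. Of the 44 resulting values, 36 stayed on the same side of the threshold. With all 4 libraries, the log2 fold change ranged from -7.26 to -5.39 for Ccl2, from -1.80 to -1.64 for Ccl5, from -2.20 to -2.04 for Ccl20 and from 2.52 to 2.78 for Cx3cl1. Their limma adjusted p-values ranged from 0.0258 to 0.213 for Ccl2, and from 0.0327 to 0.178 for Cx3cl1. Robust eBayes brought Ccl2 (log2 fold change -5.39, limma adjusted p = 0.0258) and Cx3cl1 (2.68, limma adjusted p = 0.0327) past it. The replicate numbers of the titles name different lines and clones, and no pairing was seen: across genes, deviations from the group means correlated at -0.081 between libraries of the same number. A fit with the number as a block, in which the fold change of Ccl2 stays at -5.39, moved it past the threshold (limma adjusted p = 0.0391), with 2 genes past it in all (1685 unadjusted). With 1 library left out, the log2 fold change ranged from -6.25 to -4.53 for Ccl2, from -2.43 to -0.85 for Ccl5, from -3.44 to -0.65 for Ccl20 and from 2.27 to 3.09 for Cx3cl1. These fits assume that the lone library varies like the other group, and without a CD95ko library the spread comes from the control pair alone. The number of genes past the threshold, 6 as reported, was 0 at the smaller pseudocount of 0.1, 0 with no filter, 0 when eBayes had no trend, 0 under quantile normalization, 0 under median-ratio scaling and 52 with robust eBayes. Genes with an unadjusted limma p under 0.05 numbered 1553, 1636, 1531, 1862, 1847 and 1706 in that order, against 1667. With 1 library left out the number past the threshold ranged from 0 without either control to 194 without the library labelled CD95ko 2 and 1034 without the library labelled CD95ko 1 (unadjusted, 469 to 2713). The cause was not tested. Depth is unknown, so no limit can be set on Ccl7 or Ccl9, or on Ccl2 in the library labelled CD95ko 2.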

Other observations

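Genes with profiles nearest to each chemokine were found by the Euclidean distance between log2(TPM + 1) values centred on each gene's mean over the 4 libraries. With 4 libraries and 11167 genes, near profiles are common, and the distances are a description. Nearest to Ccl2 were Gpnmb (distance 1.52), Rbp2 (1.57) and Fosl1 (1.95), all further off than those of the other chemokines. Gpnmb and Rbp2 passed the filter through the controls alone, so they had to differ between the groups. Fosl1, which encodes the AP-1 subunit FRA1, was 246.9 and 354.1 TPM in the controls versus 40.1 and 6.07 TPM in the libraries labelled CD95ko. Nearest to Ccl5 were Cd74 (0.432), the invariant chain of MHC class II, Zeb2 (0.589) and Map2k3os (0.592). Cd74 was 89.0 TPM in control 1 and 33.7 TPM in control 2, against 12.6 and 35.2 TPM in the libraries labelled CD95ko, so that its groups overlapped. Nearest to Ccl20 was Cdkn3, a cell cycle phosphatase gene, at a distance of 0.0604 with 63.9 and 66.1 TPM in the controls versus 41.1 and 5.05 TPM in the libraries labelled CD95ko, followed by Gm13032 (0.272) and Phlda2 (0.282). Nearest to Cx3cl1 were Crispld2 (0.153), the vitamin D receptor gene Vdr (0.167) and Tns4 (0.244). Crispld2 passed the filter through the libraries labelled CD95ko alone, so it too had to differ between the groups. Tns4, a focal adhesion gene, was 25.2 and 18.1 TPM in the controls versus 129.7 and 187.2 TPM in the libraries labelled CD95ko.

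Receptors and adaptors that feed NF-κB, and regulators of chemokine mRNA decay, were spread around 0. Inducer receptor and adaptor genes numbered 12, among them Tnfrsf1a, Il1r1, Tlr4 and Myd88. Of these, 0 had an unadjusted limma p under 0.05, against 9.25% of all tested genes called higher and 5.68% called lower. Under quantile normalization and under median-ratio scaling 1 was lower and 1 higher at that level, and without a variance trend 1 was higher. In the reported fit 0 passed the adjusted threshold. The median log2 fold change was 0.278, and 0.117 and 0.122 under those scalings in that order. Myd88 was 51.8 and 41.2 TPM in the controls versus 28.3 and 21.5 TPM in the libraries labelled CD95ko (log2 fold change -0.88 ± 0.40 SE, limma adjusted p = 0.344). Tlr4 was 5.23 and 2.02 TPM in the controls versus 9.77 and 10.2 TPM in the libraries labelled CD95ko (1.34 ± 0.60 SE, limma adjusted p = 0.342). Of 6 decay and stability genes, among them Zfp36, Zc3h12a and Elavl1, 0 had an unadjusted limma p under 0.05 in either direction and the median log2 fold change was -0.061.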
